A study of Mus musculus with 16 samples.

Results

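A set of 10 genes of the integrated stress response was followed through 16 RNA libraries of a mouse kidney cell line, namely Atf4, Atf5, Ddit3, Atf3, Cebpb, Cebpg, Nupr1, Trib3, Chac1 and Sesn2. They were taken by name as transcription factors and effectors of the ATF4 pathway, with earlier results of these data known though by no rule on measured values, and matched to their Ensembl identifiers. They are 10 of 55536 listed genes, and all 10 are among the 15316 genes with enough reads to be tested. The cells come from the inner medullary collecting duct, the last stretch of the kidney tubule. In this line doxycycline (DOX) switches on the loss of Pkd2, the gene of polycystin-2, a cation channel mutated in polycystic kidney disease. The 4 groups of 4 libraries are passage 7 with DOX, passage 7 without DOX, passage 4 with DOX and passage 4 without DOX. All cells were kept on permeable filters for 10 days, and DOX was given at 2 ug/mL over 6 days. By genotype label the 8 libraries with DOX are knockout and the 8 without are wild type, although the titles call all 16 Pkd2 knockout cells. The drug and the loss of Pkd2 therefore cannot be told apart, all groups come from 1 line, and no source used here names the promoter that drives the deletion. Whether the 4 replicates came from separate cultures is not stated, so a p-value measures only the spread between these libraries, which may be technical.

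The integrated stress response joins several stress sensors to 1 switch. Kinases that sense unfolded protein in the endoplasmic reticulum, amino acid shortage, double-stranded RNA or haem and mitochondrial faults phosphorylate the alpha subunit of the initiation factor eIF2. General translation then drops, while reading frames upstream of the main frame let the ATF4 mRNA be translated better. ATF4 is a basic leucine zipper (bZIP) factor that pairs with C/EBP proteins and switches on genes of amino acid supply, tRNA charging and redox balance, as well as factors that later damp or end the response. ATF4 and ATF5 are controlled in large part at translation, which read counts of RNA do not measure. In kidney tubule cells the response is known from injury, nutrient shortage and protein folding stress.

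Depth and cell identity were checked first. Total counts were 9937504 to 17188295 per library, and no library held fewer than 330 reads of any of the 10 genes. Levels are given in CPM, the reads of a gene per megaread of the library after edgeR's TMM scaling. Pkd2 had 47.6, 52.9, 60.3 and 65.9 CPM at passage 7 with DOX, against 187, 185, 184 and 185 CPM without. At passage 4 it had 52.1, 47.8, 53.6 and 57.4 CPM with DOX, against 145, 142, 135 and 138 CPM without. The 8 libraries with DOX thus lay below all 8 without. The headers of the deposited TPM table go against those of the count table: 12 of its 16 columns matched the counts of another group best, and as headed there Pkd2 did not follow DOX. The group names of the count table are used throughout, and Pkd2 checks their DOX part but not their passage part. Of 17 principal cell markers, the keratin genes Krt8 and Krt18, the adhesion genes Cdh1, Epcam and Cdh16 and the sodium channel gene Scnn1a each had at least 88.0 CPM in every library, as had Krt19 and Tfcp2l1. Aqp2, the water channel gene that defines these cells, was at 0 in all 16 libraries. The highest values were 0.381 CPM for Aqp3, 0.133 CPM for Aqp4, 0.0781 CPM for Elf5, 2.19 CPM for the vasopressin receptor gene Avpr2, and 3.81 and 2.73 CPM for the sodium channel genes Scnn1b and Scnn1g. Gata3 and Hsd11b2 lay between 3.44 and 17.5 CPM. The summed level of the 17 was 5711 to 6324 CPM at passage 7 with DOX, against 6604 to 7103 without, and 4845 to 4953 CPM at passage 4 with DOX, against 5874 to 6016 without. Most of this sum came from the keratin genes Krt8, Krt18 and Krt19, with medians of 1838, 1361 and 866 CPM over the 16 libraries. It therefore says little about the markers with low values. The 6 leukocyte markers summed to 36.1 to 43.7 CPM at passage 7 with DOX, against 67.1 to 75.2 without, and 20.1 to 35.5 CPM at passage 4 with DOX, against 39.0 to 46.9 without. The macrophage marker Adgre1 was at 0 throughout, whereas Csf1r had 12.7 to 42.1 CPM and Cd68 6.11 to 34.8 CPM, most of that sum, with no library at 0. The share of mitochondrial reads was 1.46 to 2.75% at passage 7 with DOX, against 1.09 to 2.00% without, and 2.00 to 3.00% at passage 4 with DOX, against 1.23 to 1.80% without. Both marker sums were lower with DOX at each passage, the mitochondrial share was higher with DOX without overlap at passage 4, and their part in the results was not tested. In bulk RNA, fewer cells of a type and less RNA per cell cannot be told apart.

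Stretches upstream of the genes are shown because ATF4 and its C/EBP partners bind a composite element, the C/EBP-ATF response element, whose core reads TGATGCAA. Windows of 250 bases before the start of transcription were read from RefSeq (GRCm38.p6), which held 11 windows for the 10 genes. The core, searched on both strands, was found once each before Chac1, Nupr1 and Atf3, which is 3 of 10 genes, and in 0.791% of all 32851 windows. In each it reads TTGCATCA on the gene's own strand, 193 to 186 bases before the start of Chac1 and 110 to 103 bases before the RefSeq starts of both Nupr1 and Atf3. These last 2 starts, and so their windows, lie inside the longer GENCODE spans of the genes given with their values. Chac1 also holds TGACGCAA at 250 to 243 bases (0.438% of all windows), and Atf3 holds TGACGTAA, read as TTACGTCA, at 10 to 3 bases (0.447%). The looser form TGANGNAA, which includes these 3 sequences, was found before the same 3 genes and in 14.1% of all windows. The cyclic AMP response element TGACGTCA (1.55% of all windows) and the ER stress element (0.113%) were not found in any of the 11 windows. Chac1, Nupr1 and Atf3 are printed for their matches and Trib3 and Ddit3 because they had the largest fold changes with DOX; capitals mark the matches, and every sequence runs 5′ to 3′ on the gene's strand. The windows are chr2:119350992-119351241 on the plus strand for Chac1, chr7:126625471-126625720 on the minus strand for Nupr1, chr1:191183334-191183583 on the minus strand for Atf3, chr2:152344061-152344310 on the minus strand for Trib3 and chr10:127290543-127290792 on the plus strand for Ddit3. The motifs were chosen after the windows had been read, and a match is a description of letters, not of binding.
Chac1: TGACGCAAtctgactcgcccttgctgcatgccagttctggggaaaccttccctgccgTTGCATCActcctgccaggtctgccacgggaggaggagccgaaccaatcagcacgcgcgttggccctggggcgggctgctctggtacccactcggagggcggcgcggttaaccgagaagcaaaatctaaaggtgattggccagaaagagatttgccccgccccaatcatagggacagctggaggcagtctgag
Nupr1: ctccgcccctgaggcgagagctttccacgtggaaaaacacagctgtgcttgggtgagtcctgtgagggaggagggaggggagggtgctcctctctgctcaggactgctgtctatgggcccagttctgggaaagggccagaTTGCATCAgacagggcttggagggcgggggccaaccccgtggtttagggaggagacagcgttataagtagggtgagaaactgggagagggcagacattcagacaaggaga
Atf3: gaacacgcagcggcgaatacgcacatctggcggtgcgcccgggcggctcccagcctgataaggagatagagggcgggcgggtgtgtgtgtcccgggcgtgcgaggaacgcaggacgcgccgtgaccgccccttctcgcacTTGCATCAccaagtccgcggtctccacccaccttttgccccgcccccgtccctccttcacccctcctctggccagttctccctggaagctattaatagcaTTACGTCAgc
Trib3: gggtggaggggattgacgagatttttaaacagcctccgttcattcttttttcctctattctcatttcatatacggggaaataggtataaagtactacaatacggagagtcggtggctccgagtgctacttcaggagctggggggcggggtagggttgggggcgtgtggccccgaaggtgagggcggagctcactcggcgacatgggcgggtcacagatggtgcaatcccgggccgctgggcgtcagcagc
Ddit3: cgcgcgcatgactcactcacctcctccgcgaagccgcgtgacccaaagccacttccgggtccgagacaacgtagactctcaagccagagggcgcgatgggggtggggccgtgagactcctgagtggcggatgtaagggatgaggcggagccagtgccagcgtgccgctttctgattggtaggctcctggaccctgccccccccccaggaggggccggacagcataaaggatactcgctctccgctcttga

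With DOX, most of the 10 stress response genes were higher than without, and more of them passed the test at passage 7 than at passage 4. Trib3 was 4.50-fold and Ddit3 3.52-fold higher at passage 7, and 2.73-fold and 2.57-fold higher at passage 4. Of the 10 genes, 8 rose at passage 7 and 5 at passage 4 at an adjusted p under 0.05, and none fell, also not at an unadjusted p under 0.05 or by DESeq2. Of all tested genes, 11.1% rose and 11.6% fell at passage 7, and 8.45% rose and 9.1% fell at passage 4. The same 5 genes, Atf4, Atf5, Ddit3, Trib3 and Nupr1, rose at both passages, as did 5.05% of all tested genes. The median log2 fold change of the 10 genes was 0.74 at passage 7 and 0.49 at passage 4, beside -0.01 and 0.00 over all tested genes. Adjusted p-values come from quasi-likelihood F tests in edgeR, adjusted over the 15316 tested genes after Benjamini and Hochberg. These counts are from the fit without a replicate term. With replicate number added as a block, Atf3 (adjusted p = 1.0e-05) and Chac1 (adjusted p = 0.00094) also passed at passage 7. Cebpg (adjusted p = 2.3e-07) and Sesn2 (adjusted p = 0.049) were added at passage 4. In that fit 2339 of all tested genes rose at passage 7 and 2031 at passage 4. The block rests on the replicate numbers, and libraries of the same number were no closer than those of the other number of their pair.

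**Figure D1:**
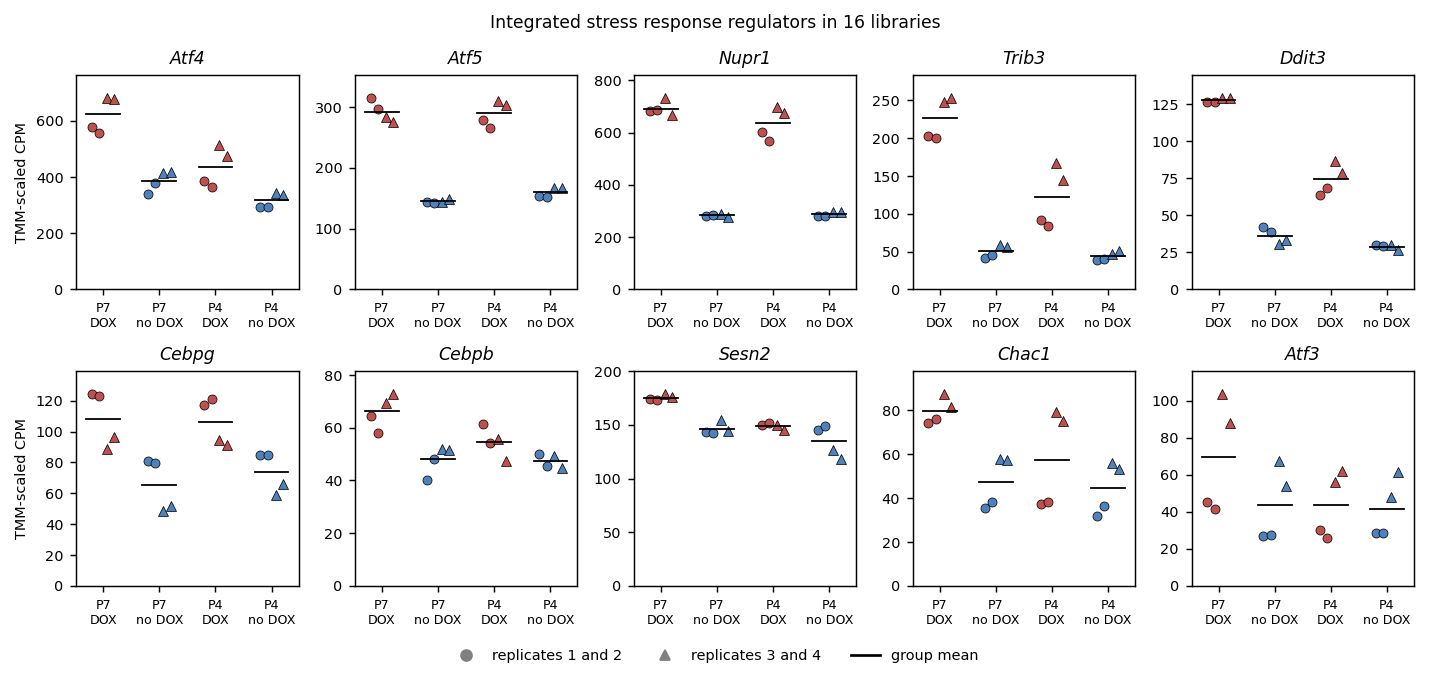
TMM-scaled CPM of each of the 10 genes in all 16 libraries, with groups on the horizontal axis, circles for replicates 1 and 2, triangles for replicates 3 and 4, and a bar for each group's mean. Nupr1, Atf5, Ddit3, Trib3 and Cebpg have all 8 libraries with DOX above all 8 without, while in Atf3 and Chac1 the triangles stand above the circles in every group.

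Among the transcription factors, Atf4 itself, on chromosome 15 (80255184 to 80257541, plus strand, GRCm38), had 576, 556, 683 and 678 CPM at passage 7 with DOX, against 338, 380.3, 413 and 418 CPM without. The values at passage 4 were 386, 366, 514 and 474 CPM with DOX, against 294, 293, 344 and 337 CPM without. At each passage the libraries with DOX lay wholly above those without, though the lowest with DOX at passage 4 were below the highest without DOX at passage 7. On the log2 scale Atf4 rose by 0.69 at passage 7 (SE 0.11, edgeR adjusted p = 0.00015) and by 0.45 at passage 4 (SE 0.11, adjusted p = 0.0060).

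Atf5, which encodes a bZIP factor known from the mitochondrial stress response (chromosome 7, 44812256 to 44816658, minus strand), had 316, 297, 283 and 275 CPM at passage 7 with DOX, against 144, 142, 143 and 149 CPM without. At passage 4 it had 278, 265, 309.8 and 304 CPM with DOX, against 154, 151, 168 and 167 CPM without. All 8 libraries with DOX stood above all 8 without, and the 2 passages with DOX overlapped. The rise was 1.01 at passage 7 (SE 0.06, edgeR adjusted p = 8.9e-10) and 0.85 at passage 4 (SE 0.06, adjusted p = 9.6e-09).

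Ddit3 encodes CHOP, a C/EBP relative that ATF4 induces and that is known for promoting cell death in prolonged stress (chromosome 10, 127290774 to 127296288, plus strand). It had 126, 126, 129 and 129 CPM at passage 7 with DOX, against 42.0, 39.1, 30.9 and 33.1 CPM without. The values at passage 4 were 63.5, 68.7, 86.6 and 78.5 CPM with DOX, against 29.8, 29.3, 30.1 and 26.6 CPM without. The groups with DOX did not overlap each other or either group without DOX. The 4 libraries of passage 7 with DOX, with 1433 to 2074 counts, had a coefficient of variation of 1.35%, no wider than the random error of counting. Ddit3 rose by 1.81 (SE 0.10, edgeR adjusted p = 2.6e-10) at passage 7 and by 1.36 (SE 0.10, adjusted p = 1.4e-08) at passage 4. A second identifier carries the same symbol on the same strand and shares 6.13% of the exon bases of Ddit3; it had 0 counts in every library.

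Atf3 encodes a bZIP factor of the acute stress response that can repress or activate (chromosome 1, 191170296 to 191218039, minus strand). It had 45.2, 41.7, 104 and 88.1 CPM at passage 7 with DOX, against 26.8, 27.4, 67.7 and 54.0 CPM without. At passage 4 it had 30.3, 25.9, 56.0 and 61.8 CPM with DOX, against 28.6, 28.8, 47.9 and 61.5 CPM without. Replicates 3 and 4 exceeded replicates 1 and 2 in every group, and this spread was wider than the difference with DOX. The log2 fold change was 0.68 (SE 0.43, edgeR adjusted p = 0.30) at passage 7 and 0.05 (SE 0.43, adjusted p = 0.96) at passage 4. Within pairs, the value at passage 7 was 0.65 in replicates 3 and 4 and 0.68 in replicates 1 and 2. With replicate number as a block the adjusted p at passage 7 was 1.0e-05, and that at passage 4 was 0.76.

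Cebpb and Cebpg encode C/EBP partners of ATF4. Cebpb (chromosome 2, 167688915 to 167690418, plus strand), a factor of inflammation and differentiation, had 64.3, 58.1, 69.4 and 72.8 CPM at passage 7 with DOX, against 40.3, 48.1, 51.9 and 51.7 CPM without. The values at passage 4 were 61.3, 54.2, 55.9 and 47.3 CPM with DOX, against 50.2, 45.5, 49.4 and 44.6 CPM without. The groups were apart at passage 7 and overlapped at passage 4. Cebpb rose by 0.47 at passage 7 (SE 0.09, edgeR adjusted p = 0.0010). For passage 4 the estimate was 0.21 (SE 0.09, adjusted p = 0.14). It shares 312 exon bases, 20.7% of its exons, with Tmem189 on the opposite strand, and no source used here states the strand setting of the counting.

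Cebpg (chromosome 7, 35046422 to 35056573, minus strand), a short family member that lacks an activation domain of its own, had 124, 123, 88.5 and 96.3 CPM at passage 7 with DOX, against 80.7, 79.6, 48.7 and 51.7 CPM without. At passage 4 it had 117, 121, 94.8 and 91.5 CPM with DOX, against 84.8, 84.9, 59.1 and 66.1 CPM without. Every library with DOX was above every library without, while replicates 3 and 4 were below replicates 1 and 2 in each group. Cebpg rose by 0.72 at passage 7 (SE 0.19, edgeR adjusted p = 0.011). At passage 4 its value was 0.53 (SE 0.19, adjusted p = 0.064), and 0.53 with an adjusted p of 2.3e-07 with the replicate block.

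Of the effectors and feedback regulators, Nupr1 encodes a small stress-induced chromatin protein (chromosome 7, 126623249 to 126630861, minus strand). It had 681, 685, 734 and 667 CPM at passage 7 with DOX, against 279.9, 286, 290.4 and 277 CPM without. The values at passage 4 were 601, 568, 696 and 675 CPM with DOX, against 280.4, 281, 296 and 295 CPM without. The 8 libraries with DOX formed a band far above the 8 without, whose values lay within 277 to 296 CPM at both passages. Nupr1 rose by 1.29 (SE 0.06, edgeR adjusted p = 4.3e-11) and by 1.14 (SE 0.06, adjusted p = 4.3e-10) at passages 7 and 4. Averaged over the passages it had the smallest p of all 15316 tested genes, with Ddit3 at rank 10 and Atf5 at rank 14.

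Trib3 encodes a pseudokinase that ATF4 and CHOP induce and that binds ATF4 and AKT, a negative feedback arm of the response (chromosome 2, 152337422 to 152344032, minus strand). It had 203, 201, 248 and 254 CPM at passage 7 with DOX, against 41.5, 45.6, 58.6 and 55.9 CPM without. At passage 4 it had 92.5, 83.8, 167 and 144 CPM with DOX, against 38.7, 40.6, 47.4 and 51.5 CPM without. All 8 libraries with DOX were above all 8 without, and replicates 3 and 4 stood above replicates 1 and 2 in all 4 groups. The rise was 2.17 (SE 0.21, edgeR adjusted p = 3.5e-06) at passage 7 and 1.45 (SE 0.20, adjusted p = 0.00017) at passage 4.

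Chac1 encodes a cytosolic enzyme that breaks down glutathione and is a direct ATF4 target (chromosome 2, 119351229 to 119354381, plus strand). It had 74.2, 76.1, 87.5 and 81.7 CPM at passage 7 with DOX, against 35.7, 38.2, 58.0 and 57.2 CPM without. The values at passage 4 were 37.3, 38.1, 79.1 and 75.0 CPM with DOX, against 31.9, 36.4, 55.9 and 53.4 CPM without. The groups were apart at passage 7, and at passage 4 the difference was seen mostly in replicates 3 and 4. The log2 fold change at passage 7 was 0.76 (SE 0.27, edgeR adjusted p = 0.059, and 0.00094 with the replicate block), and at passage 4 it was 0.36 (SE 0.27, adjusted p = 0.43). Within pairs it was 0.55 in replicates 3 and 4 and 1.03 in replicates 1 and 2 at passage 7. At passage 4 the values were 0.49 and 0.14.

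Sesn2 encodes sestrin 2, a leucine sensor that restrains mTORC1 and that both p53 and ATF4 induce (chromosome 4, 132492032 to 132510501, minus strand). It had 174, 173, 179 and 176 CPM at passage 7 with DOX, against 143, 142, 154 and 144 CPM without. At passage 4 it had 150.0, 151, 150.3 and 145 CPM with DOX, against 146, 149, 127 and 118 CPM without. The groups were apart at passage 7 with little spread, and at passage 4 they overlapped through replicates 1 and 2 without DOX. Sesn2 rose by 0.27 at passage 7 (SE 0.06, edgeR adjusted p = 0.0039), the smallest rise among the 8. For passage 4 the estimate was 0.15 (SE 0.06, adjusted p = 0.11, and 0.049 with the replicate block).

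**Figure D2:**
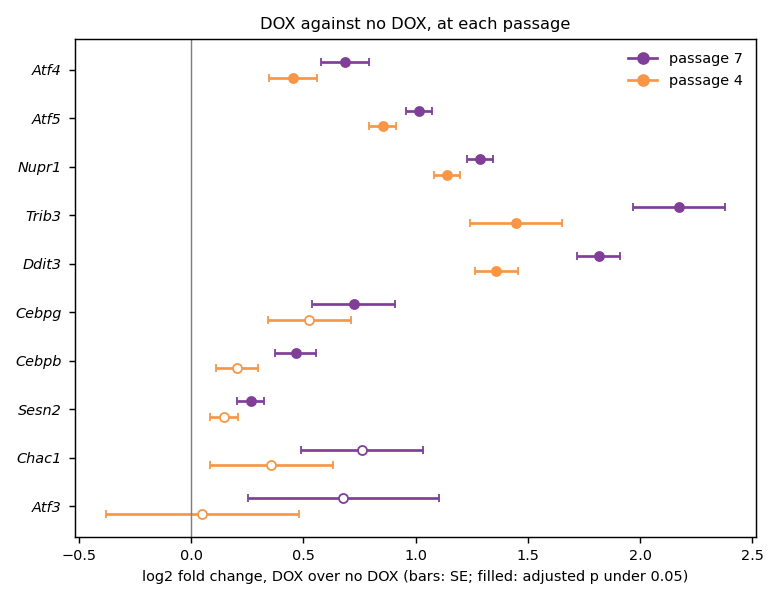
Log2 fold change of each gene, DOX over no DOX, at passage 7 and at passage 4, with bars of 1 SE; filled points passed an adjusted p under 0.05 by edgeR's quasi-likelihood test and open points did not. All 20 points lie right of 0, from 0.05 for Atf3 at passage 4 to 2.17 for Trib3 at passage 7.

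Separation of single libraries gave a like picture. Of the 10 genes, 9 had all 4 libraries with DOX above all 4 without at passage 7, and 6 did so at passage 4, against 12.4% and 10.3% of all tested genes. Over both passages, 5 genes had all 8 libraries with DOX above all 8 without, namely Atf5, Ddit3, Trib3, Nupr1 and Cebpg, as did 2.57% of all tested genes. With the passages averaged, 9 of the 10 genes rose and none fell, where 15.7% of all tested genes rose and 16.6% fell. Atf3 was the exception, at 0.36 (SE 0.30, edgeR adjusted p = 0.40, and 0.00017 with the replicate block). Chac1 passed narrowly, at 0.56 (SE 0.19, adjusted p = 0.039), and was above the threshold without 1 library in 9 of 16 cases (adjusted p 0.053 to 0.082). These were passage 7 with DOX without replicate 2, 3 or 4, passage 7 without DOX without replicate 1 or 2, passage 4 with DOX without replicate 3 or 4, and passage 4 without DOX without replicate 1 or 2.

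Whether the response to DOX differs between the passages was tested by the difference of the 2 fold changes, passage 7 minus passage 4. All 10 differences were positive, with a median of 0.25 beside -0.00 over all tested genes, but none of the 10 passed edgeR's test, where 1.19% of all tested genes passed in either direction (0.516% higher, 0.679% lower). Ddit3 and Trib3, 2 of the 10, passed at an unadjusted p under 0.05, and DESeq2 called 0. By p in edgeR's test, Trib3 held rank 1100 and Cebpb, which missed that cut, rank 1956 of the 15316 tested genes. At least 1100 and fewer than 1956 of all tested genes thus passed the unadjusted cut, in either direction. Ddit3 differed by 0.46 (SE 0.13, adjusted p = 0.12) and Trib3 by 0.72 (SE 0.28, adjusted p = 0.32). With the replicate block, Trib3 (0.76, adjusted p = 0.0076) and Atf3 (0.62, adjusted p = 0.0078) passed. Without replicate 3 of passage 4 with DOX, Ddit3 passed at 0.54 (adjusted p = 0.039). For Nupr1 and Atf5 the differences were 0.15 (95% interval -0.01 to 0.31) and 0.16 (95% interval -0.00 to 0.32), so a response larger at passage 7 by up to these upper bounds is within the spread.

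Later passage was then compared within each DOX state. With DOX, 5 of the 10 genes were higher at passage 7 than at passage 4 and none lower, where 18.3% of all tested genes were higher and 15.8% lower. With the replicate block 8 of the 10 were higher, where 3546 of the 15316 tested genes were higher and 3307 lower. The libraries of passage 7 lay wholly above those of passage 4 for 4 of the 10 genes (17.5% of all tested genes). Trib3 was higher by 0.90 (SE 0.19, edgeR adjusted p = 0.0027), Ddit3 by 0.78 (SE 0.09, adjusted p = 3.6e-06) and Atf4 by 0.52 (SE 0.11, adjusted p = 0.0012). Cebpb (0.28, SE 0.09, adjusted p = 0.025) and Sesn2 (0.23, SE 0.06, adjusted p = 0.0067) were the other two. Cebpb lost its call without replicate 3 or 4 of passage 7 with DOX, or without replicate 4 of passage 4 with DOX (adjusted p 0.063 to 0.088). With replicates 1 and 2 only Cebpb was at 0.09 (edgeR adjusted p = 0.46), against 0.47 in replicates 3 and 4. The 3 genes added by the block were Atf3 (0.67, adjusted p = 6.1e-06), Chac1 (0.55, adjusted p = 0.0062) and Nupr1 (0.13, adjusted p = 0.035). For Atf5 and Cebpg the differences with DOX were 0.02 (95% interval -0.10 to 0.13) and 0.02 (95% interval -0.34 to 0.38). The replicate pairs of Atf5 went opposite ways, at -0.14 in replicates 3 and 4 (edgeR adjusted p = 0.027) and 0.18 in replicates 1 and 2 (adjusted p = 0.016).

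Without DOX, 1 of the 10 genes was higher at passage 7 than at passage 4, where 14.3% of all tested genes were, so the share is near the background. That gene was Ddit3, with 42.0, 39.1, 30.9 and 33.1 CPM at passage 7 against 29.8, 29.3, 30.1 and 26.6 CPM at passage 4, a difference of 0.33 (SE 0.10, edgeR adjusted p = 0.020). Its libraries of passage 7 lay wholly above those of passage 4, as did those of 14.6% of all tested genes, and the call was lost without replicate 1 or 2 of passage 7 without DOX and without replicate 4 of passage 4 without DOX (adjusted p 0.064 to 0.086). The call was also lost with replicates 3 and 4 only, where Ddit3 was at 0.17 (edgeR adjusted p = 0.15), against 0.47 in replicates 1 and 2. Atf4 had a value of 0.29 (SE 0.11, adjusted p = 0.057, and 9.3e-05 with the replicate block). Without replicate 1 of passage 7 without DOX, or replicate 2 or 3 of passage 4 with DOX, its adjusted p was 0.033 to 0.037. None was lower by edgeR's test or by DESeq2, where 11.3% of all tested genes were lower by edgeR, and 1 was at an unadjusted p under 0.05. That gene, Atf5, held rank 4597 of the 15316 tested genes by p in either direction. With the block, Atf5 (-0.14, adjusted p = 0.039) and Cebpg (-0.19, adjusted p = 0.016) were lower, 2 of the 10 genes. In that fit 2660 of the 15316 tested genes were lower and 3005 higher, so the share that fell is near the background. The median of the 10 genes was 0.38 with DOX and 0.08 without, beside -0.01 over all tested genes in each.

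**Figure D3:**
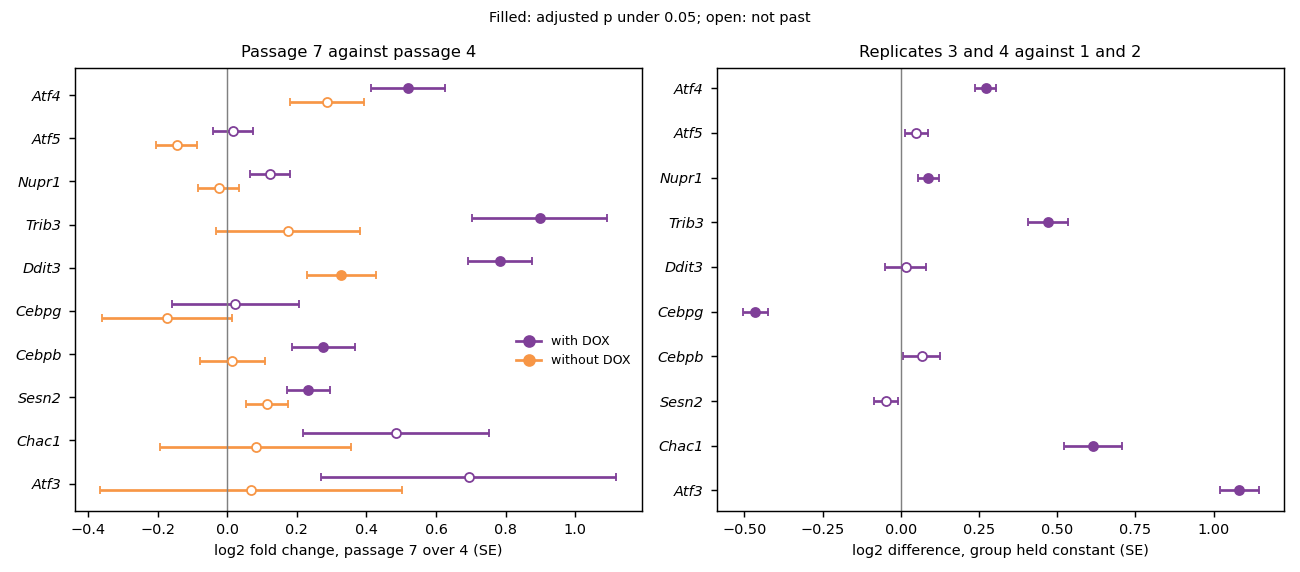
Left, log2 fold change of passage 7 over passage 4, with DOX and without DOX; right, log2 difference of replicates 3 and 4 from replicates 1 and 2 with group held constant. Bars are 1 SE and filled points passed an adjusted p under 0.05 by edgeR's test; Trib3, Ddit3 and Atf4 are farthest right among the filled points with DOX, and Atf3 (1.08) and Cebpg (-0.47) are at the 2 ends of the right panel.

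Replicates fell into the pairs 3 and 4 against 1 and 2 in every group, and several of the 10 genes differed between the pairs. Fitted over all 16 libraries with group held constant, 5 of the 10 genes were higher in replicates 3 and 4 (17.5% of all tested genes) and 1 was lower (19.5%). Atf3 was higher by 1.08 (SE 0.06, edgeR adjusted p = 1.35e-11), Chac1 by 0.61 (SE 0.09, adjusted p = 0.00016), Trib3 by 0.47 (SE 0.07, adjusted p = 2.7e-05) and Atf4 by 0.27 (SE 0.03, adjusted p = 4.9e-07). Nupr1 was higher by 0.09 (SE 0.03, adjusted p = 0.041), a call that was lost in 9 of 16 fits without 1 library (adjusted p 0.053 to 0.11). These were the fits without any 1 of the 8 libraries of passage 4 and the fit without replicate 3 of passage 7 with DOX. Cebpg was lower, at -0.47 (SE 0.04, adjusted p = 1.5e-09). For Ddit3 the difference was 0.02 (SE 0.06, adjusted p = 0.88), for Atf5 0.05 (SE 0.04, adjusted p = 0.31) and for Sesn2 -0.05 (SE 0.04, adjusted p = 0.35). The labels do not say what sets the pairs apart. The pairs are balanced over the 4 groups. Within replicates 3 and 4 all 10 genes had a positive log2 fold change with DOX at each passage, and within replicates 1 and 2 all 10 did at passage 7 and 9 did at passage 4, where Atf3 was at -0.03.

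Per length of exon, the order of levels changed with DOX. The length used is that of all annotated exons merged, for example 2514 bases for Nupr1 and 2358 bases for Atf4. It can exceed the length of the transcripts present, which was not measured. The order between genes therefore holds only for these lengths. With DOX, Nupr1 had the highest mean level at both passages, 275 ± 11.6 CPM per kb at passage 7 and 253 ± 24.1 at passage 4 (SD, n = 4). Without DOX Atf4 did, at 164 ± 15.6 and 135 ± 11.6 CPM per kb. At passage 7 with DOX the libraries of Nupr1 and Atf4 (264 ± 28.1) overlapped, whereas in the other 3 groups the 2 leading genes were apart. Atf5 held the third place by mean in all 4 groups, at 147 ± 8.90 and 72.6 ± 1.45 CPM per kb at passage 7 with and without DOX, and 145 ± 10.5 and 80.3 ± 4.29 at passage 4. At passage 4 with DOX its libraries overlapped those of Atf4.

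By mean, Trib3 held the fourth place with DOX, at 107 ± 13.3 CPM per kb at passage 7 and 57.4 ± 18.9 at passage 4, and the seventh place without, at 23.7 ± 3.84 and 21.0 ± 2.80. At passage 4 with DOX its libraries overlapped those of Ddit3. In both groups without DOX they overlapped those of Chac1, next above, and of the gene next below. Ddit3 had 74.6 ± 1.00 CPM per kb at passage 7 with DOX, against 21.2 ± 3.00 without, and 43.4 ± 6.01 at passage 4 with DOX, against 16.9 ± 0.94 without, next below Trib3 in both groups with DOX. At passage 4 with DOX its libraries overlapped those of Sesn2 as well. Sesn2, Cebpb and Chac1 had mean levels between 27.1 and 50.5 CPM per kb in all groups. Cebpb and Chac1 overlapped in each of the 4 groups, and Sesn2 overlapped Chac1, its next gene, at passage 7 with DOX. Atf3 had 32.3 ± 14.4 and 20.4 ± 9.41 CPM per kb at passage 7 with and without DOX, and 20.2 ± 8.38 and 19.4 ± 7.44 at passage 4. Cebpg had the lowest mean in every group, between 11.6 and 19.2 CPM per kb, and its libraries overlapped those of Atf3 in each group. At passage 4 without DOX its next gene was Ddit3, and those 2 were apart.

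**Figure D4:**
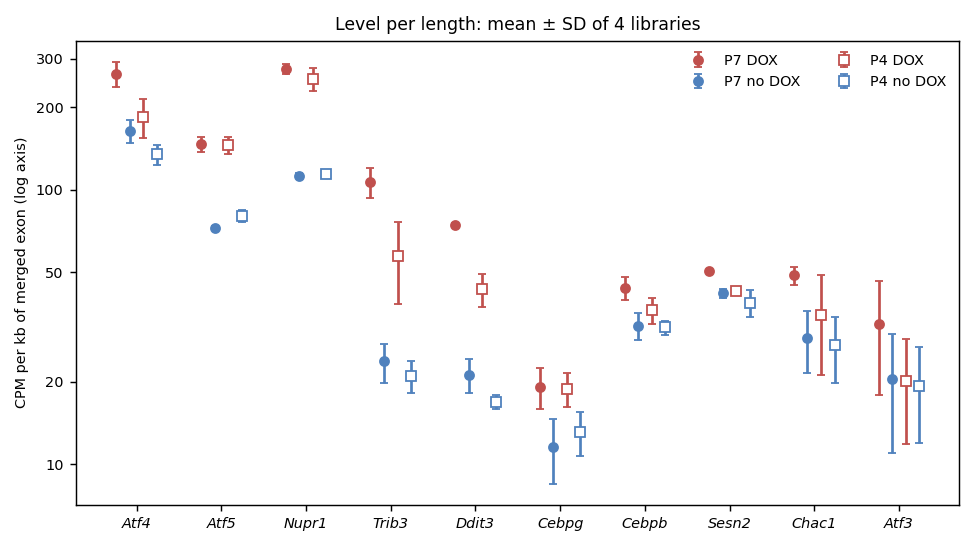
Mean level of each gene in CPM per kb of merged exon on a log axis, with bars of 1 SD over 4 libraries, for passage 7 with and without DOX (filled) and passage 4 with and without DOX (open squares). Nupr1 leads with DOX (275 and 253) and Atf4 without (164 and 135), and Cebpg is lowest in each group (11.6 to 19.2).

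How alike the 10 genes run over the 16 libraries was measured as the root mean square distance between their z-scored log2 CPM, in SD units. The 10 differ by gene, group and replicate pair at once, so the distances are descriptions with no test. The closest 2 were Atf5 and Nupr1 (0.154 SD), followed by Ddit3 and Trib3 (0.276 SD). The farthest apart were Atf3 and Cebpg (1.55 SD), which lean to opposite replicate pairs. The search for near genes took the other tested genes, leaving out those named only by a Gm number, a Rik name or an accession. Among these, the nearest to the mean profile of the 10 were Asns (0.123 SD), Hspa9 (0.132 SD), Sars (0.133 SD), Chchd10 (0.146 SD) and Xpot (0.150 SD). Asns encodes asparagine synthetase, Hspa9 the mitochondrial chaperone mortalin, Sars seryl-tRNA synthetase, Chchd10 a protein of the mitochondrial intermembrane space and Xpot the tRNA exporter exportin-t. Chchd10 averaged 148 CPM at passage 7 with DOX, against 45.9 CPM without, and 85.4 CPM at passage 4 with DOX, against 43.5 CPM without. Of single genes, Asns was nearest to Trib3 (0.105 SD), Arhgef2 to Ddit3 (0.135 SD), Bok to Atf4 (0.165 SD), Lama3 to Atf5 (0.196 SD) and Lgals3 to Nupr1 (0.210 SD). Atf3 (Arid5a, 0.296 SD), Chac1 (Pmepa1, 0.298 SD), Cebpg (Pcf11, 0.298 SD), Sesn2 (Adm2, 0.320 SD) and Cebpb (H2afj, 0.383 SD) had no gene as near among those searched.

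Upstream of the 10 genes, the eIF2alpha kinases and the mitochondrial relay that reports to them were read, like the lists after them, against the shares of all tested genes for DOX averaged over the passages, 15.7% higher and 16.6% lower. With the replicate block, 3098 of the 15316 tested genes were higher and 3318 lower. Averaged over the passages, 0 of 9 genes rose and 1 fell, with a median of -0.01; 1 rose with the replicate block, and 1 rose without replicate 3 or 4 of passage 4 with DOX. The gene that fell was Eif2ak3, which encodes the endoplasmic reticulum kinase PERK (-0.24, SE 0.04, edgeR adjusted p = 0.00013). Dele1, the mitochondrial messenger, had 0.08 (adjusted p = 0.16), its protease Oma1 -0.11 (adjusted p = 0.19), and the kinase inhibitor gene Dnajc3 0.12 (adjusted p = 0.071). These kinases act through phosphorylation, which was not measured here. Of 13 genes of eIF2, its exchange factor eIF2B and the phosphatase that reverses the mark, 6 rose and 1 fell, where 15.7% and 16.6% of all tested genes did, with a median of 0.10. The eIF2 subunit genes Eif2s2 (0.38, SE 0.05), Eif2s3x (0.26, SE 0.05) and Eif2s1 (0.20, SE 0.04) rose, and the eIF2B subunit gene Eif2b4 fell (-0.23, SE 0.05). Ppp1r15a, which encodes GADD34, the inducible phosphatase subunit that ends the response, averaged 119 CPM at passage 7 with DOX, against 50.9 CPM without, and 62.5 CPM at passage 4 with DOX, against 37.2 CPM without. It rose by 0.99 on average (SE 0.22, adjusted p = 0.0035); it was named after its values were seen.

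Downstream, ATF4 targets outside the 10 genes rose nearly throughout, against 15.7% of all tested genes that rose and 16.6% that fell: of 31 tested genes of amino acid supply, tRNA charging and related functions, 26 rose and 1 fell, with a median of 0.64. Wars, the tryptophanyl-tRNA synthetase gene, averaged 534 CPM at passage 7 with DOX, against 242 CPM without, and 569 CPM at passage 4 with DOX, against 262 CPM without. Aldh1l2, a mitochondrial folate enzyme gene, averaged 229 CPM at passage 7 with DOX, against 39.4 CPM without, and 63.4 CPM at passage 4 with DOX, against 20.9 CPM without (averaged rise 2.07, SE 0.11). The arginine and lysine transporter gene Slc7a3 (1.83, SE 0.09) and the secreted glycoprotein gene Stc2 (1.44, SE 0.09) followed. The 1 gene that fell, named after its values were seen, was the calcineurin inhibitor gene Rcan1 (-0.35, SE 0.07, edgeR adjusted p = 0.00059). The remaining 4, named after their values were seen, did not pass: Ddit4 was at 0.58 (adjusted p = 0.057), Vldlr at 0.03, Slc38a2 at -0.01 and Gdf15, a secreted stress signal gene often used as a readout of this response, at -0.04 (adjusted p = 0.77).

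In the difference of the DOX response between the passages, 7 of these 31 ATF4 targets passed, all larger at passage 7, where 0.516% of all tested genes were. They were, named for having passed, Slc7a3 (1.09, edgeR adjusted p = 0.0046), Cth (0.84, adjusted p = 0.018), Gpt2 (0.72, adjusted p = 0.0088), Psph (0.66, adjusted p = 0.047), Mthfd2 (0.58, adjusted p = 0.027), Gars (0.49, adjusted p = 0.017) and Eprs (0.44, adjusted p = 0.016). With the replicate block 12 passed, and 11 did without replicate 3 of passage 4 with DOX.

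A list of genes that CHOP is known to regulate or that act in apoptosis held 11 tested genes. Of these 11, 1 rose and 1 fell on average, with a median of 0.00. Neither share exceeded that of all tested genes (15.7% and 16.6%). The list leaves out Trib3, which CHOP also induces and which was counted among the stress response regulators. Trib3 rose by 1.81 on average (SE 0.14, edgeR adjusted p = 2.7e-07). The shares therefore hold for this list and not for all CHOP targets. The anti-apoptotic gene Bcl2l1 rose by 0.12 (SE 0.04, edgeR adjusted p = 0.044), a call lost in 11 of 16 fits without 1 library, and the phosphatase gene Dusp1 fell (-0.70, SE 0.14, adjusted p = 0.0013). Mcl1 was at 0.07 (adjusted p = 0.28) and Ero1l, an oxidase gene that CHOP induces, at 0.18 (SE 0.14, adjusted p = 0.38). The other arms of the unfolded protein response, under IRE1 and ATF6, had 3 genes higher and 5 lower of 17, and 8 lower with the replicate block, with a median of -0.10. The share that rose is near the 15.7% of all tested genes, and 16.6% of all tested genes fell. Sel1l of ER-associated degradation rose (0.31, SE 0.03), and the ER folding genes Calr (-0.30, SE 0.05) and Pdia6 (-0.19, SE 0.03) and the vesicle coat gene Sec24d (-0.30, SE 0.06) fell. Hspa5, which encodes the chaperone BiP and was named after its values were seen, averaged 719 CPM at passage 7 with DOX, against 668 CPM without, and 743 CPM at passage 4 with DOX, against 774 CPM without (averaged value 0.02, SE 0.04, adjusted p = 0.74).

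Of 30 bZIP relatives outside the 10 genes, 6 rose, a share near the 15.7% of all tested genes, and 9 fell, where 16.6% of all tested genes did, with a median of -0.04. Atf6, the sensor gene of the ATF6 arm (0.35, SE 0.04), and Nfe2l1, a factor of proteasome supply (0.24, SE 0.03), rose, whereas Fosl2 (-0.41, SE 0.05) and Creb3 (-0.28, SE 0.04) fell. Of 6 paralogs of the effectors, 1 rose and 1 fell, shares near those of all tested genes, and 2 fell with the replicate block. Chac2, the second glutathione-degrading enzyme of its family, averaged 14.6 CPM at passage 7 with DOX, against 10.4 CPM without, and 16.7 CPM at passage 4 with DOX, against 10.8 CPM without (averaged rise 0.56, SE 0.08, edgeR adjusted p = 4.1e-05). Trib1 fell (-0.21, SE 0.06, adjusted p = 0.014), Sesn3 was at -0.14 (adjusted p = 0.20) and Nupr1l at 0.33 (adjusted p = 0.35).

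Around sestrin 2, 4 of 20 growth control and p53 genes rose, near the 15.7% of all tested genes, and 1 fell, where 16.6% of all did, with a median of 0.04. Of these 20, 3 fell with the replicate block, and 2 fell without replicate 2 of passage 7 with DOX. Tfeb, a lysosomal regulator (0.41, SE 0.07), Sqstm1, an autophagy receptor gene (0.36, SE 0.06), and Rragd, an mTORC1-recruiting GTPase gene (0.36, SE 0.07), rose. Cdkn1a, the p21 gene that p53 drives, averaged 468 CPM at passage 7 with DOX, against 633 CPM without, and 552 CPM at passage 4 with DOX, against 663 CPM without (-0.35, SE 0.06, edgeR adjusted p = 0.00013). Around Chac1, 5 of 9 glutathione genes fell and 2 rose, with a median of -0.37, where 16.6% of all tested genes fell and 15.7% rose. Gclm, a subunit gene of the enzyme that begins glutathione synthesis, averaged 132 CPM at passage 7 with DOX, against 276 CPM without, and 214 CPM at passage 4 with DOX, against 371 CPM without (-0.92, SE 0.07). The glutathione reductase gene Gsr (-0.38, SE 0.04) and the gamma-glutamyl transferase genes Ggt1 (-2.10, SE 0.20) and Ggt7 (-2.85, SE 0.17) fell as well, the last 2 from means of at most 11.3 CPM.

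**Figure D5:**
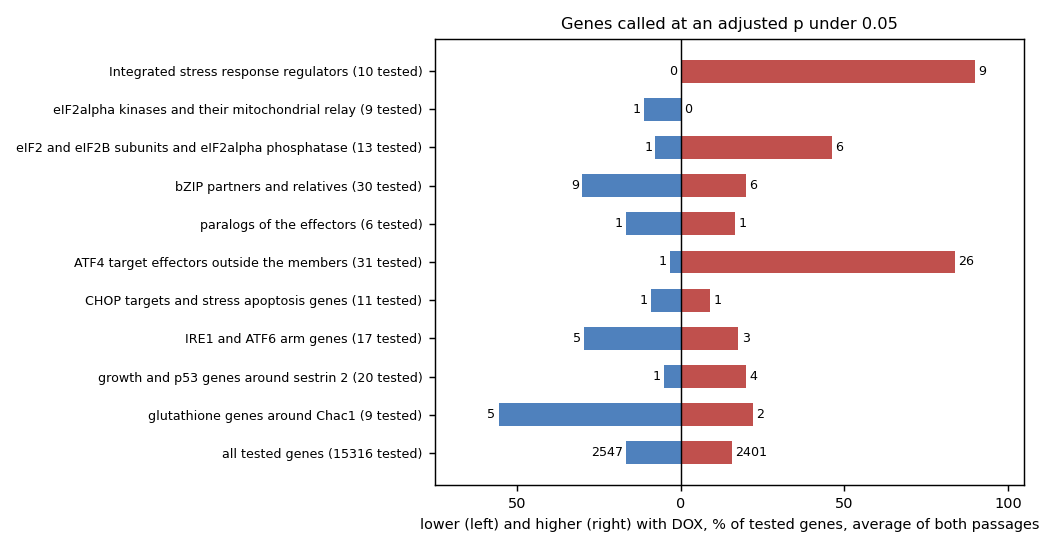
Share of tested genes lower (left) and higher (right) with DOX, averaged over both passages, at an adjusted p under 0.05 by edgeR's test, for the 10 regulators, each related gene list and all tested genes; the number at each bar is the count. The 10 regulators (9 higher, 0 lower) and the ATF4 targets (26 higher, 1 lower of 31) lean to the right, and the glutathione genes (2 higher, 5 lower of 9) to the left.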

How the data were processed

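RNA of 16 libraries (4 groups of 4) was sequenced as poly(A), directional libraries with paired reads of 75 bp and aligned with STAR 2.6.0c to GRCm38.p6, per the labels' protocols. The authors deposited whole-number counts per Ensembl gene and a TPM table; the counting tool, annotation release and strand setting are not given in the sources used here. The TPM deposited by the authors were used only to compare headers: the lowest of their best Pearson correlations with a count column was 0.9999 over 9321 genes, and the next best were at most 0.928.

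Counts were fitted in edgeR 4.0.16 (R 4.3.3) with a quasi-likelihood test, robust dispersion, TMM scaling, the default expression filter and 1 mean per group over all 16 libraries (12 residual degrees of freedom), with Benjamini-Hochberg adjustment and a threshold of 0.05. SE is the log2 fold change over the root of F, and intervals are 1.96 SE. The replicate pairs were tested in a separate fit with the pair as a term. Exon lengths and coordinates come from GENCODE M21, in which all 55536 identifiers were found, and promoter windows from RefSeq. Total counts were 9937504 to 17188295 per library, and replicate counts differed with a chi-square of 1.87 to 4.65 per degree of freedom inside the pairs 1 and 2 or 3 and 4, and of 10.4 to 19.0 across them. The script was tested on simulated data.

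The replicate numbers come from the labels. Deviations from the group means correlated at 0.18 to 0.37 for libraries of the same number (24 pairs of libraries). For the other number of the same pair the values were 0.18 to 0.39, and across pairs -0.34 to -0.18. The same number was thus no closer than the other number of its pair. Deviations cancel within a group, so values across pairs go negative where those inside pairs are positive. Number served as pairing only in the replicate block, and the reported tests of DOX and passage had no replicate term. Alternatives were DESeq2 1.42.0 (test and size factors), no filter, the replicate block, the pair as a term, each pair alone and leaving out each library.

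The 10 genes and all gene lists were chosen with earlier results of these data known. From each list up to 4 genes with the smallest p for DOX averaged over passages are named, and others are marked in the text.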

Additional observations from a re-analysis of the deposited data

How the results depend on the processing

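With size factors of DESeq2 in place of TMM, the median of all genes moved by at most 0.003 on the log2 scale, and no count of called genes among the 10 moved by over 1.5 times. The count rising with DOX at passage 4 was 5, and 8 with replicates 3 and 4 only. In the difference of DOX responses it was 0, and 2 with the replicate block, 4 with the pair as a term, 5 with replicates 1 and 2 only and 2 with replicates 3 and 4 only. Over all genes, that difference had 79 higher and 104 lower calls, against 143 and 206 by DESeq2, 287 and 428 with the block and 339 and 482 with the pair as a term. For passage 7 against 4 without DOX, 1 gene was higher, and 2 by DESeq2, with the block, with the pair as a term and with replicates 1 and 2 only, and 3 with replicates 3 and 4 only. These 3 were Atf4, Trib3 and Sesn2, and Ddit3 was not among them. There 0 were lower, and 2 with the block, the pair as a term or replicates 3 and 4 only. Over all tested genes, 2187 were higher and 1735 lower in that comparison, against 3005 and 2660 with the block and 3085 and 2774 with the pair as a term. For passage with DOX 5 were higher, and 8 with the block, the pair as a term or replicates 1 and 2 only, and 0 were lower, against 1 with replicates 3 and 4 only. Cebpb was not among the 8 with replicates 1 and 2 only. Over all tested genes, 2806 were higher and 2417 lower there, against 3546 and 3307 with the block and 3643 and 3406 with the pair as a term.

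Leaving out single libraries gave 8 to 9 genes higher with DOX at passage 7, 5 to 6 at passage 4, 8 to 9 averaged and 0 to 1 in the difference. For passage it gave 4 to 6 higher with DOX and 0 to 2 higher without. For the replicate pairs it gave 4 to 5 higher and 1 lower. Without DOX, 2 were higher without replicate 2 or 3 of passage 4 with DOX, and 0 without replicate 2 of passage 7 or replicate 4 of passage 4, both without DOX. Beside those of Ddit3 and Atf4 given above, single calls gained were Chac1 at passage 7 without replicate 1, 2 or 3 of passage 4 with DOX (adjusted p 0.044 to 0.046), Cebpg at passage 4 without replicate 3 of passage 7 without DOX (0.044) and Sesn2 at passage 4 without replicate 2 of passage 4 without DOX (0.037). Nupr1 gained a call for passage with DOX without replicate 3 of passage 4 with DOX (0.17, edgeR adjusted p = 0.030).

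The values that changed sign were not past the threshold in the reported test. With DOX at passage 4, Atf3 was -0.033 in replicates 1 and 2 and -0.17 to 0.30 without single libraries. The Sesn2 difference was -0.024 in replicates 3 and 4. For passage without DOX in replicates 1 and 2, Atf3 was -0.074, Nupr1 0.018, Cebpb -0.11 and Sesn2 -0.039, and Cebpb was -0.0013 with no filter. Without single libraries, Atf3 ranged from -0.23 to 0.31, Cebpb from -0.030 to 0.091 and Chac1 from -0.046 to 0.21. For passage with DOX in replicates 3 and 4, Atf5 was -0.14 (adjusted p = 0.027 by edgeR, and 0.18 with 0.016 in replicates 1 and 2) and Cebpg -0.012. Without single libraries they ranged from -0.023 to 0.050 (Atf5) and from -0.050 to 0.11 (Cebpg). Ddit3 between the pairs ranged from -0.030 to 0.059. The causes were not tested. Each of the 10 genes had at least 330 reads in every library, and the part of depth in these changes was not tested.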
